A study of Drosophila melanogaster with 24 samples.

Results

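The genes of the mitochondrial protein import channels followed here, in sorted clock neurons of Drosophila melanogaster, were Tom7, Tom20, Tom40, Tom70, Tim8, Tim9a, Tim10, Tim13, Tim17b and Tim23. They were taken as the 10 rows of that name among the 15610 genes of the UMI count table, with upper and lower case kept apart, so that the clock gene tim was not included. The rule itself uses no measured value, though the set was proposed with earlier results of these data known. Of the 10, 9 passed the filter on low counts in each of the 23 comparisons made, and Tim13 did not.

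Most mitochondrial proteins are encoded in the nucleus, made in the cytosol and threaded into the organelle as unfolded chains. The translocase of the outer membrane (TOM) recognises them with receptors and passes them through a pore. Small chaperones of the intermembrane space (the small TIM proteins) escort hydrophobic chains, and the TIM23 translocase passes those with a presequence through the inner membrane. These roles were worked out mainly in yeast and mammals. Neurons depend on mitochondria for synaptic activity, and import needs the membrane potential of the inner membrane, whose shape is set in part by the fusion protein Opa1.

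The neurons came from male flies in which CLK856-Gal4, a driver active in clock neurons, expressed UAS-Cas9 and UAS-eGFP. Controls, called Cas9, carried these transgenes alone. The 3 mutant genotypes also carried UAS-3XgRNA-Drp1, UAS-3XgRNA-Marf or UAS-3XgRNA-Opa1, guide RNAs that direct Cas9 to the named gene, and are called Drp1-mut, Marf-mut and Opa1-mut. Drp1 divides mitochondria, Marf fuses outer membranes and Opa1 fuses inner membranes. Flies were about 15 days (young) or about 35 days (old), and all were dissected at ZT14, 14 hours after the start of the light phase. Each of the 8 groups had 3 libraries, each from about 1000 GFP-positive sorted cells, and all 3 came from a single suspension of 80 to 100 brains. A p-value between groups therefore measures the spread between sorted pools, and genotype or age cannot be told apart from the suspension they came in. Cas9 and eGFP were present in all groups, so an effect of either is shared by mutants and controls, and the share of edited cells is not given by these counts.

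Whole UMIs per gene were counted from 5' tagged Smart-seq3 cDNA, and a library held 684175 to 2889269 UMIs. Levels are given as CPM scaled by TMM, a factor per library that centres most genes, and as mean ± SD over the 3 libraries of a group. A gene is called where edgeR's quasi-likelihood test gives an adjusted p under 0.05 over all genes tested. A lack of overlap between the libraries of groups is given as a description, not as a test. The share of all genes without overlap was not counted. The 6 clock neuron markers tim, per, Clk, cry, vri and Pdf were all detected in each group, with a sum of 7210 to 21791 CPM per library. Summed glial markers reached 105 to 283 CPM, photoreceptor markers 63.0 to 202 CPM, fat body and hemocyte markers 7.68 to 125 CPM and markers of other neurosecretory cells, among them Hug and Dh44, 428 to 10562 CPM. Of the targeted genes, Drp1 fell in old Drp1-mut by 0.89 on the log2 scale (SE 0.16, adjusted p = 0.00624) and Opa1 in old Opa1-mut by 0.68 (SE 0.12, adjusted p = 0.000364), while Marf was not called in Marf-mut at either age. In bulk samples such as these, fewer cells of a type and less RNA per cell cannot be told apart.

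Over the 23 comparisons the 9 tested genes gave 207 tests, of which 5 (2.42%) were called, beside 3.55% of all genes tested in the same comparisons. The share among the channel genes was thus near that of all genes, and 19 comparisons had no call among them. Tom7, a small subunit of the TOM complex, accounts for 3 of the 5 calls, and the small TIM genes Tim8 and Tim9a for the other 2. No call fell on the pore gene Tom40, the receptor genes Tom20 and Tom70, Tim10, or the inner membrane channel genes Tim17b and Tim23. The highest group mean was 1.59 times the lowest for Tom7 and 1.11 times for Tim17b, with the other 7 tested genes in between.

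**Figure D1:**
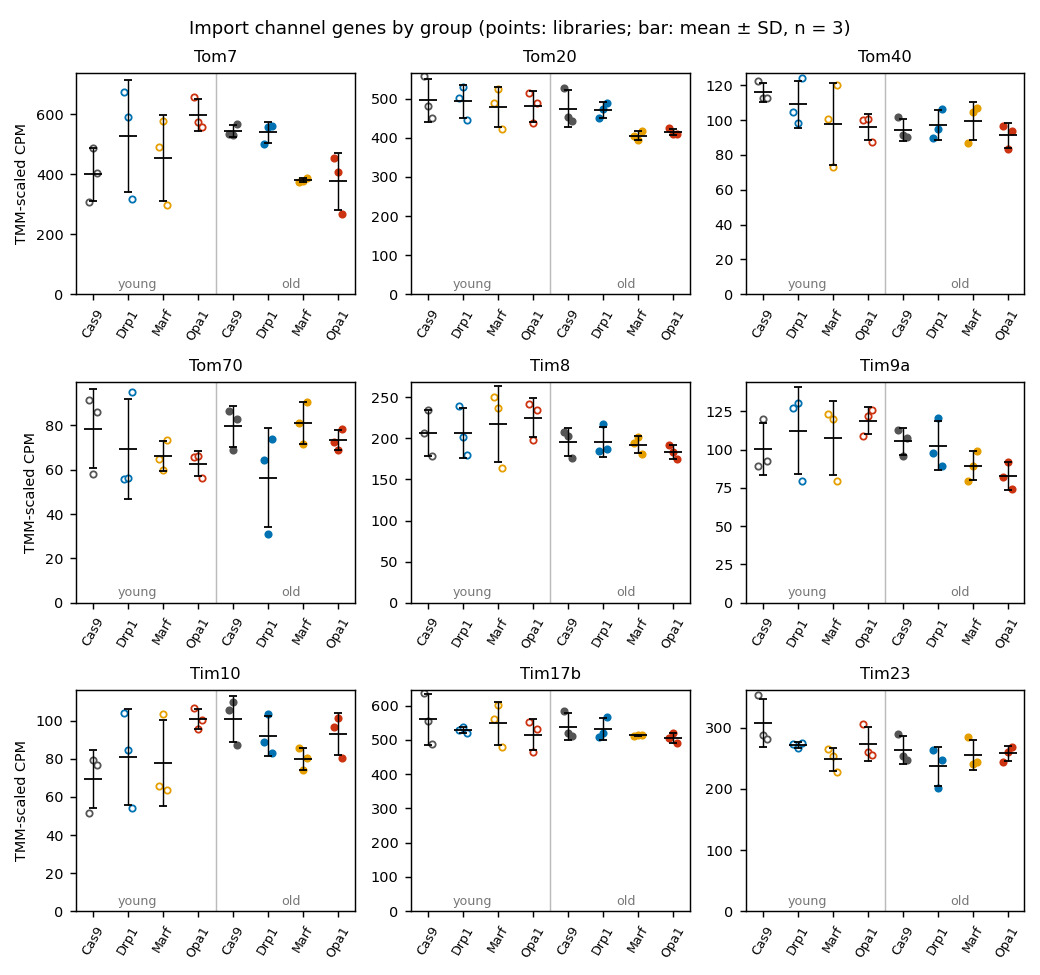
Levels of the 9 tested import channel genes in TMM-scaled CPM (vertical axis, starting at 0) for the 4 genotypes in young (open points) and old flies (filled points); each point is a library, the long bar the mean and the whiskers the SD of 3 libraries. Tom7 in old Marf-mut sits at 376 to 387 CPM, below the 533 to 568 CPM of old Cas9, while Tim17b covers 464 to 636 CPM over all 24 libraries.

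Tom7 lies on chromosome arm 2R at 8951595 to 8952242 (dm6, plus strand), and its longest transcript has 539 bases in 2 exons. In young flies its level was 308, 487 and 404 CPM in Cas9, 675, 591 and 317 CPM in Drp1-mut, 492, 578 and 297 CPM in Marf-mut, and 659, 574 and 559 CPM in Opa1-mut. Of the young mutant groups, Opa1-mut alone lay wholly above young Cas9, and the libraries of young Drp1-mut and Marf-mut were widely spread. In old flies its level was 535, 533 and 568 CPM in Cas9, 501, 559 and 561 CPM in Drp1-mut, 376, 378 and 387 CPM in Marf-mut, and 453, 407 and 268 CPM in Opa1-mut. Old Marf-mut and old Opa1-mut lay wholly below old Cas9 and old Drp1-mut. Ordered by mean, old Opa1-mut, old Marf-mut, young Cas9, young Marf-mut, young Drp1-mut, old Drp1-mut, old Cas9 and young Opa1-mut followed each other, and no pair of neighbours in this order differed by more than the larger SD of the pair.

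The receptors Tom20 and Tom70 bind precursor proteins at the surface of the organelle. Tom20 lies on 3L at 20000644 to 20002446 (plus strand, 4 exons) and overlaps Gabat on the other strand. Its mean was 406 ± 11.5 CPM in old Marf-mut and 415 ± 8.31 CPM in old Opa1-mut, and from 471 ± 19.4 CPM in old Drp1-mut to 497 ± 54.9 CPM in young Cas9 in the other 6 groups. The step between old Opa1-mut and old Drp1-mut exceeded the larger SD of the pair, and no other step in the order of Tom20 did. Tom70, on 2L at 12035984 to 12038511 (minus strand, 3 exons) and overlapping CG18788 on the other strand, ranged from 56.4 ± 22.3 CPM in old Drp1-mut to 81.0 ± 9.44 CPM in old Marf-mut. The low mean of old Drp1-mut rests on its replicate 2, with 31.2 CPM from 22 UMIs, beside 64.4 and 73.7 CPM in the others. The channel gene Tom40, on X at 7736893 to 7739978 (plus strand, 5 exons), ranged from 91.3 ± 7.06 CPM in old Opa1-mut to 116 ± 5.61 CPM in young Cas9.

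The small TIM proteins form ring-shaped chaperones, Tim9 with Tim10 and Tim8 with Tim13. Tim8, on X at 11368445 to 11369283 (plus strand, 2 exons), had its lowest mean in old Opa1-mut, 183 ± 8.49 CPM, and its highest in young Opa1-mut, 225 ± 23.8 CPM. Tim9a, on X at 13385210 to 13385893 (plus strand, 3 exons), ranged from 82.8 ± 8.99 CPM in old Opa1-mut to 119 ± 8.92 CPM in young Opa1-mut. For both genes the extremes were the old and young groups of a single genotype. Tim10, on 2R at 21690215 to 21691139 (minus strand, 2 exons), ranged from 69.3 ± 15.2 CPM in young Cas9 to 101 ± 11.9 CPM in old Cas9, and its span is shared on the same strand by CG42497, so its counts are uncertain.

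Tim13, on 3L at 11774060 to 11774501 (minus strand, 1 exon), was at or near 0 throughout. It had 2 UMIs in young Cas9 replicate 3 and none in the other 23 libraries, of 36323267 UMIs in all. A count of 0 in a group allows up to 0.509 CPM in young Drp1-mut, the deepest group, and up to 1.15 CPM in old Drp1-mut, the shallowest, taking 3 UMIs over a group as the limit and counting error alone. No difference between groups was detectable for Tim13 at this depth.

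Tim17b and Tim23 build the channel of the TIM23 translocase. Tim17b, on 3R at 3734855 to 3745306 (plus strand, 3 exons), had group means from 505 ± 15.1 CPM in old Opa1-mut to 559.8 ± 73.5 CPM in young Cas9. Tim23, on 2L at 23312465 to 23313578 (minus strand, 4 exons), had group means from 237 ± 32.1 CPM in old Drp1-mut to 308 ± 39.7 CPM in young Cas9. For Tom40, Tom70, Tim8, Tim9a, Tim10, Tim17b and Tim23 no pair of neighbours in the order of the group means differed by more than the larger SD of the pair.

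Each mutant was first set against Cas9 of the same age, which compares neurons that carry guide RNAs with neurons that do not. The 3 comparisons of an age share their Cas9 libraries. In young Drp1-mut none of the 9 genes was called by edgeR, 0 had an unadjusted p under 0.05 and 0 were called by DESeq2, where 0.0831% of all genes tested were called. In young Marf-mut again none was called, 1 had an unadjusted p under 0.05 and 0 were called by DESeq2, against 0.346% of all genes. That gene was Tim23, at 265, 253 and 227 CPM beside 354, 289 and 282 CPM in young Cas9. The groups did not overlap, and the log2 difference of -0.28 (SE 0.12) had an adjusted p of 0.459. The median log2 difference of the 9 genes was 0.02 in young Drp1-mut and -0.01 in young Marf-mut, beside 0.01 over all genes tested in each. An unadjusted p under 0.05 was found for 4.94% of all genes in young Drp1-mut and 9.75% in young Marf-mut.

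In young Opa1-mut the small genes Tom7 and Tim10 stood above Cas9 without being called. None of the 9 genes was called by edgeR, 2 had an unadjusted p under 0.05 and 1, Tom7, was called by DESeq2 (adjusted p = 0.00710), where edgeR called 2.94% of all genes. Of all genes, 18.1% had an unadjusted p under 0.05. The log2 difference of Tom7 was 0.61 (SE 0.16, adjusted p = 0.0650). Tim10 was at 106, 95.9 and 101 CPM against 51.8, 79.5 and 76.5 CPM in young Cas9. Its groups did not overlap, and its log2 difference was 0.57 (SE 0.16, adjusted p = 0.0686). Without young Cas9 replicate 2, the highest of its group for both genes, edgeR called Tom7 at 0.79 and Tim10 at 0.69. This omission removes the control library nearest young Opa1-mut, so it widens both differences by construction. Over the 6 omissions the log2 difference was 0.44 to 0.79 for Tom7 and 0.39 to 0.69 for Tim10. The adjusted p reached 0.218 for Tom7 and 0.198 for Tim10. Young Opa1-mut libraries, with 1315343 to 1525456 UMIs, were all shallower than those of young Cas9, with 1583625 to 2141193, and with log2 depth as a covariate Tom7 was at 0.39 (adjusted p = 0.791) and Tim10 at 0.55 (adjusted p = 0.702). Summed glial markers, all 6 detected, were also lower in each young Opa1-mut library, with medians of 125 and 175 CPM, and their part in these values was not tested. The median over the 9 genes was -0.01, as it was over all genes tested.

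In old Drp1-mut the genes again stood near Cas9. None of the 9 was called by edgeR or DESeq2 and 0 had an unadjusted p under 0.05, where 0.394% of all genes were called. An unadjusted p under 0.05 was found for 7.52% of all genes. The log2 difference of Tom7 was 0.00 (SE 0.10), and the widest, that of Tom70, was -0.47 (SE 0.23, adjusted p = 0.671). Markers of other neurosecretory cells summed to 428 to 5927 CPM in old Drp1-mut and 8547 to 10562 CPM in old Cas9. Clock neuron markers summed to 8137 to 21784 CPM in old Drp1-mut and 12434 to 14444 CPM in old Cas9. The part of these markers in the values was not tested.

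In old Marf-mut Tom7 fell, and it was the single called gene of the 9, where 4.58% of all genes were called and 2.91% were called lower. Its libraries at 376, 378 and 387 CPM all lay below those of old Cas9 at 535, 533 and 568 CPM. The log2 difference was -0.54 (SE 0.08, adjusted p = 0.000149), and the call held with any library left out, with adjusted p-values of 0.000219 to 0.00339. Tom20 and Tim10 also lay wholly below old Cas9 without being called, at log2 differences of -0.25 (SE 0.09, adjusted p = 0.111) and -0.36 (SE 0.14, adjusted p = 0.155). Without old Cas9 replicate 3, the library of old Cas9 lowest in Tom20, that gene was called at -0.29. That was 1 of 6 omissions, over which its adjusted p reached 0.400. The remaining 6 genes had log2 differences of -0.25 to 0.06, and the median of the 9 was -0.09 beside 0.01 over all genes.

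Library depth and marker genes moved with the fall of Tom7 in old Marf-mut. Old Marf-mut libraries held 1394517 to 1735212 UMIs and old Cas9 libraries 1109778 to 1313809. With log2 depth as a covariate the difference of Tom7 was -0.50 (SE 0.13) and no longer called (adjusted p = 0.0594), and in a fit of all 24 libraries, with the spread shared by all groups, it was -0.53 (SE 0.27, adjusted p = 0.436). The 6 clock neuron markers summed to 15465 to 19745 CPM in old Marf-mut and 12434 to 14444 CPM in old Cas9, and the 5 markers of other neurosecretory cells, all detected, to 3345 to 7444 against 8547 to 10562 CPM. The 5 photoreceptor markers, all detected, summed to 89.4 to 116 against 75.5 to 83.5 CPM. The part of these markers in the result was not tested.

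In old Opa1-mut none of the 9 genes was called by edgeR, 3 had an unadjusted p under 0.05 and 1, Tom7, was called by DESeq2 (adjusted p = 0.00914), where edgeR called 13.2% of all genes. Of all genes, 25.6% had an unadjusted p under 0.05. All 9 log2 differences were below 0, from -0.55 to -0.04 with a median of -0.12, beside 0.00 over all genes tested. Under total count scaling 2 of the 9 were above 0 and their median was -0.06, beside 0.07 over all genes. Tom7 at 453, 407 and 268 CPM lay wholly below old Cas9, but its spread was wide and the log2 difference of -0.55 (SE 0.18) had an adjusted p of 0.107. It was called at -0.71 without old Opa1-mut replicate 1 and at -0.36 without replicate 3, the deepest library of the group at 1843669 UMIs and the lowest in Tom7. In the other omissions it was not called, with adjusted p-values of up to 0.392. With log2 depth as a covariate the difference was 0.00 (SE 0.18). Old Opa1-mut libraries, at 1468850 to 1843669 UMIs, were all deeper than those of old Cas9, at 1109778 to 1313809. Depth and genotype can therefore not be told apart in this fit. Tim9a at 82.2, 92.1 and 74.1 CPM also lay wholly below old Cas9 at 113, 95.5 and 108 CPM, with a log2 difference of -0.36 (SE 0.14, adjusted p = 0.0967).

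Of the 9 genes in the authors' deposited tables, 1 was below an adjusted p of 0.05 in old Marf-mut, beside 1.91% of all genes, and 1 in old Opa1-mut, beside 6.12% of all genes. Both were Tom7, in the authors' deposited tables at log2 differences of -0.55 in Marf-mut (adjusted p = 0.0133) and -0.55 in Opa1-mut (adjusted p = 0.00389). The authors' deposited tables for the other 4 comparisons gave no such value for any of the 9.

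**Figure D2:**
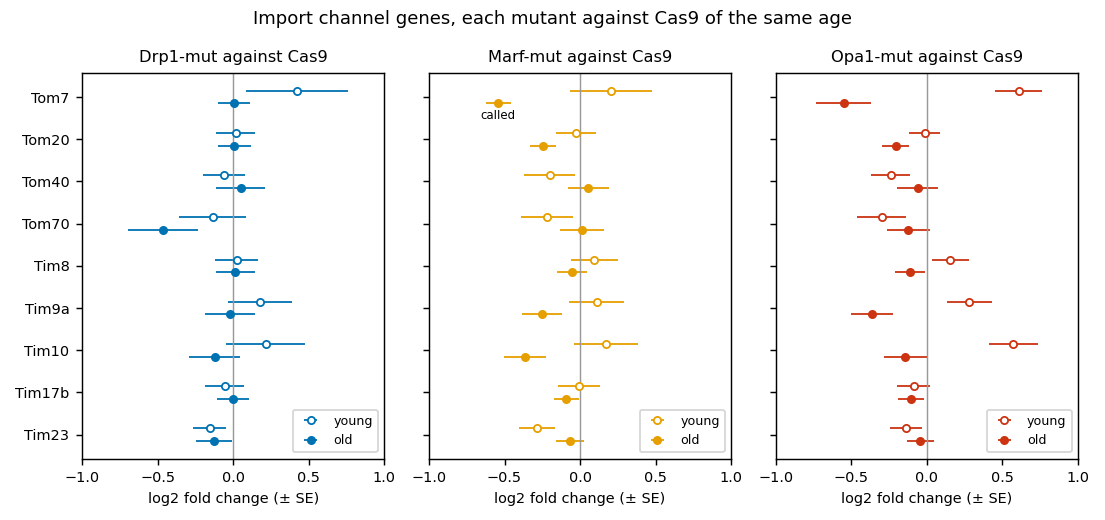
Log2 fold changes of the 9 tested import channel genes in each mutant against Cas9 of the same age (horizontal axis, points with SE, open for young and filled for old flies). Tom7 in old Marf-mut, at -0.54, is the single called value, and Tom7 in Opa1-mut is at 0.61 in young and -0.55 in old flies.

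Old and young flies of each genotype were then compared. In Cas9 none of the 9 genes was called by edgeR or DESeq2, where 2.45% of all genes were called. An unadjusted p under 0.05 was found for 15.4% of all genes and for 2 of the 9. These were Tom7, at a log2 difference of 0.50 (SE 0.15, adjusted p = 0.0976), and Tim10, at 0.60 (SE 0.17, adjusted p = 0.0868), and both were higher in all 3 old than in all 3 young libraries. Without young Cas9 replicate 2, the same library as in the comparison with young Opa1-mut, they were called at 0.67 and 0.71. Over the 6 omissions the adjusted p reached 0.268 for Tom7 and 0.285 for Tim10. All old Cas9 libraries were shallower than all young ones, and with log2 depth as a covariate Tom7 was at 0.21 and Tim10 at 0.76 (adjusted p = 0.998 for each). The 5 markers of other neurosecretory cells summed to 8547 to 10562 CPM in old and 2773 to 7523 CPM in young Cas9, and their part was not tested. In Drp1-mut none was called by edgeR or DESeq2 and 0 had an unadjusted p under 0.05, where 0.705% of all genes were called. An unadjusted p under 0.05 was found for 11.8% of all genes there. In Marf-mut none was called by either tool and 1, Tom20, had an unadjusted p under 0.05 (log2 difference -0.24, SE 0.11, adjusted p = 0.317), where 3.39% of all genes were called. There 15.5% of all genes had an unadjusted p under 0.05. Without young Marf-mut replicate 3, the deepest library of that group, Tom7, Tom20, Tim8 and Tim9a were called lower in old Marf-mut, at -0.49, -0.32, -0.35 and -0.44. This was the single omission of 6 in which any of the 9 was called. Over the 6 omissions the adjusted p reached 0.923 for Tom7, 0.580 for Tom20, 0.945 for Tim8 and 0.850 for Tim9a. The share of all genes called without that library is not given here.

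In Opa1-mut the small TIM genes Tim8 and Tim9a fell with age, 2 of the 9 genes, where 12.4% of all genes were called and 4.78% were called lower. Tim9a was at 82.2, 92.1 and 74.1 CPM in old and 109, 122 and 126 CPM in young Opa1-mut. The groups did not overlap, and the log2 difference of -0.53 (SE 0.12, adjusted p = 0.00869) was called with any library left out. Tim8 was at 192, 183 and 175 CPM in old and 242, 198 and 235 CPM in young Opa1-mut. Its groups did not overlap either, but its log2 difference of -0.30 (SE 0.09, adjusted p = 0.0441) was called after just 1 of the 6 omissions, and missed with adjusted p-values of 0.0726 to 0.152 without young replicate 1 or 3 or any 1 of the old libraries.

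Tom7 and Tom20 also lay wholly lower in old Opa1-mut than in young, at log2 differences of -0.67 (SE 0.21, adjusted p = 0.124) and -0.22 (SE 0.08, adjusted p = 0.0818). DESeq2 called Tom7 (adjusted p = 0.000678) and Tim9a (adjusted p = 0.0326) and not Tim8 (adjusted p = 0.186). Tom7 was called at -0.48 without old Opa1-mut replicate 3 and Tom20 at -0.28 without young replicate 2. Each was called in 1 of the 6 omissions, with adjusted p-values of up to 0.299 for Tom7 and 0.211 for Tom20 in the others. Over the 9 genes 8 differences were below 0, with a median of -0.13 beside 0.00 over all genes. Tom70 alone was above 0, at 72.6, 69.1 and 78.3 CPM in old and 65.9, 65.9 and 56.3 CPM in young Opa1-mut (log2 difference 0.23, SE 0.13, adjusted p = 0.299).

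Markers of other cells moved with age in Opa1-mut. The 6 glial markers, all detected, summed to 158 to 223 CPM in old and 115 to 132 CPM in young libraries. The 5 markers of other neurosecretory cells summed to 3976 to 8832 in old and 3103 to 3546 CPM in young libraries, and the 5 photoreceptor markers had a median sum of 68.9 in old and 92.7 CPM in young libraries. The 3 markers of all neurons summed to 1284 to 1317 in old and 1419 to 1565 CPM in young libraries. None of these 4 sums overlapped between the ages. Their part in the falls of Tim8 and Tim9a was not tested. Depth overlapped, at 1468850 to 1843669 UMIs in old and 1315343 to 1525456 in young libraries, and with log2 depth as a covariate Tim9a was at -0.49 (adjusted p = 0.0498), Tim8 at -0.25 (adjusted p = 0.202) and Tom7 at -0.42 (SE 0.09, adjusted p = 0.00839).

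Whether a mutant's effect differed between ages was tested as an interaction over 12 libraries. Tom7 in Opa1-mut was the single call among the 9 genes, where 5.63% of all genes were called and 3.27% were called with a lower effect in old flies. Its effect in old minus its effect in young flies was -1.16 on the log2 scale (SE 0.29, adjusted p = 0.0491), from 0.61 in young and -0.55 in old Opa1-mut. The call was lost in 9 of the 12 omissions of a library, at adjusted p-values of up to 0.113, and without mitochondrial DNA and ribosomal RNA genes (adjusted p = 0.0515). With log2 depth as a covariate the value was -0.44 (SE 0.36, adjusted p = 0.870). Tim9a at -0.64 (SE 0.20, adjusted p = 0.0562) and Tim10 at -0.71 (SE 0.22, adjusted p = 0.0563) had the same sign without being called, and both were called without young Cas9 replicate 2, at -0.79 and -0.82. Again this is the library named above, and each was called in 1 of the 12 omissions. The adjusted p reached 0.160 for Tim9a and 0.163 for Tim10.

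For Marf-mut none of the 9 interactions was called by edgeR or DESeq2, where 0.284% of all genes were called. An unadjusted p under 0.05 was found for 10.3% of all genes and for 1 of the 9. This was Tom7, at -0.74 (SE 0.30, adjusted p = 0.416), and without young Marf-mut replicate 3 it was called at -0.98. That was 1 of 12 omissions, over which the adjusted p reached 0.642. For Drp1-mut none was called by either tool and 0 had an unadjusted p under 0.05. There edgeR called 0% of 7256 genes, 3.58% had an unadjusted p under 0.05, and DESeq2 called 3 genes.

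The 3 mutants were compared with each other at each age, 6 pairs in all, which needs no Cas9 library. Old Drp1-mut, the fission mutant, had more Tom7 than old Marf-mut, a fusion mutant, and this was the single call in 54 tests of the 9 genes. All 3 libraries of old Drp1-mut, at 501, 559 and 561 CPM, lay above the 3 of old Marf-mut, where 4.34% of all genes were called and 2.47% were called higher. The log2 difference was 0.54 (SE 0.09, adjusted p = 0.00172) and it was called with any library left out. Old Drp1-mut was the shallower group, at 684175 to 1148217 UMIs, and with log2 depth as a covariate the difference was 0.35 (SE 0.18, adjusted p = 0.718). Markers of other neurosecretory cells summed to 428 to 5927 CPM in old Drp1-mut and 3345 to 7444 CPM in old Marf-mut. Clock neuron markers summed to 8137 to 21784 CPM in old Drp1-mut and 15465 to 19745 CPM in old Marf-mut. Their part in this difference was not tested.

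Against old Opa1-mut, old Drp1-mut stood higher in Tom7 by 0.55 on the log2 scale (SE 0.18), with no overlap but an adjusted p of 0.0851 in edgeR. DESeq2 called this difference (adjusted p = 0.0234), and edgeR called 10.2% of all genes. An unadjusted p under 0.05 was found for 3 of the 9 genes and 24.5% of all genes. Between old Marf-mut and old Opa1-mut, the fusion mutants, none of the 9 genes was called by edgeR or DESeq2 and 0 had an unadjusted p under 0.05, where 15.9% of all genes were called. Of all genes, 28.5% had an unadjusted p under 0.05. The difference of Tom7 there was 0.01 (SE 0.20), and the median over the 9 genes was 0.02 beside 0.01 over all genes. In young flies none was called by either tool in Marf-mut against Opa1-mut (1.39% of all genes called, 1 of the 9 with an unadjusted p under 0.05), Drp1-mut against Opa1-mut (0.224%, 0 of the 9) or Drp1-mut against Marf-mut (0.460%, 0 of the 9). In the same order, 12.2%, 6.75% and 8.80% of all genes had an unadjusted p under 0.05.

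With the 3 libraries of a suspension summed, and the 8 suspensions as replicates in a fit of age and genotype with 3 residual degrees of freedom, none of the 36 tests of these genes was called by edgeR or DESeq2, and 0 had an unadjusted p under 0.05. The fit has no interaction term. A genotype effect that differs between ages enters its residual spread and cannot be shown by it. Of all 8707 genes tested, edgeR called 0.138% for Drp1-mut, 0.103% for Marf-mut, 0.609% for Opa1-mut and 3.72% for age. The 9 log2 differences ranged from -0.23 to 0.10 for Drp1-mut, from -0.23 to -0.01 for Marf-mut, from -0.23 to 0.20 for Opa1-mut and from -0.14 to 0.23 for age. For Marf-mut all 9 were below 0, with a median of -0.11, and under total count scaling 2 of the 9 were above 0.

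Within groups, the level of several of these genes followed the depth of the library. With group means removed, log2 CPM of Tom7 and log2 depth had a Pearson r of -0.807 over the 24 libraries. The r was -0.679 for Tim8, -0.631 for Tim9a, -0.574 for Tim10, -0.515 for Tom20 and -0.442 for Tim17b, near 0 for Tim23 at -0.0370, and positive for Tom40 at 0.420 and Tom70 at 0.505. The genes with a negative r have longest transcripts of 516 to 1008 bases, and the positive ones, Tom40 and Tom70, of 2395 and 2297 bases. Over all genes the median r was also negative for short and positive for longer transcripts, at -0.480 for 296 genes with transcripts under 600 bases, -0.400 for 387 genes of 600 to 800 bases 0.212 for 1554 genes of 2000 to 3000 bases and 0.120 for 2593 genes over 3000 bases, so that it did not rise through all lengths. These values describe 24 libraries that share suspensions in sets of 3, and depth enters both axes. Where the groups compared did not overlap in depth, a fit with log2 depth cannot tell depth apart from genotype or age.

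**Figure D3:**
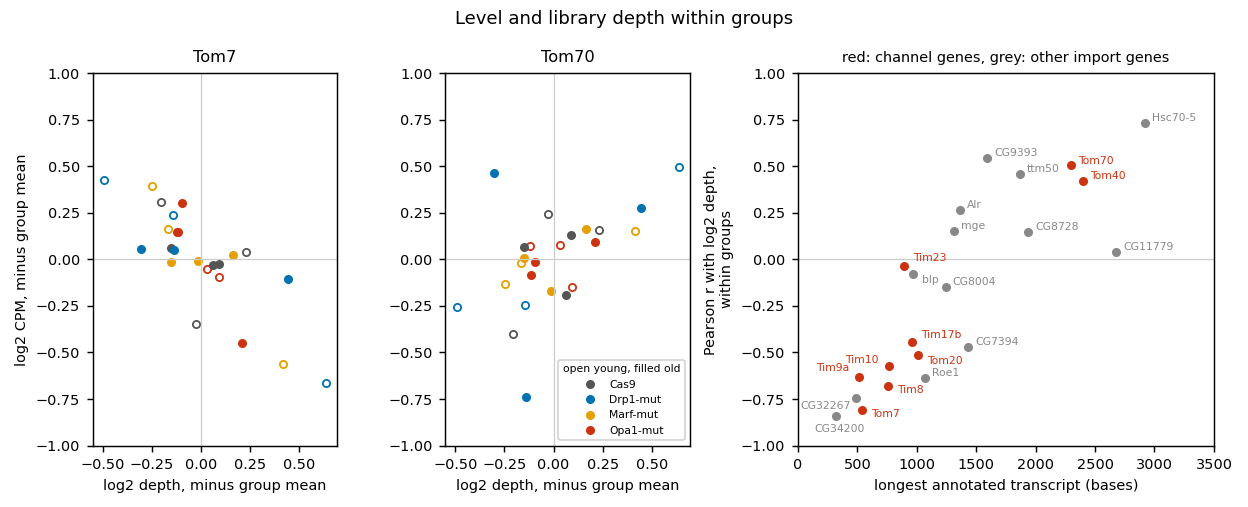
Left and middle: log2 CPM of Tom7 and of Tom70 against log2 library depth, each as the deviation from its group mean, with a point per library (colour for genotype, open for young and filled for old). Right: Pearson r of these deviations over 24 libraries against the longest annotated transcript in bases, for import channel genes in red and other import genes in grey. Tom7, with 539 bases, is at -0.807 and Tom70, with 2297 bases, at 0.505.

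The channel genes varied together in part. Over the 24 libraries log2 CPM had a Pearson r of 0.783 for Tom20 and Tim17b (0.902 with group means removed), 0.808 for Tom7 and Tim9a, 0.724 for Tim8 and Tim9a, and 0.712 for Tom7 and Tim10. The lowest r was -0.701 for Tom40 and Tim10, then -0.604 for Tom70 and Tim9a and -0.541 for Tom7 and Tom70. The part of depth in these values was not tested. Of 7661 genes ranked by their r with the mean of the 9 channel genes, Pfdn4 (0.877), a subunit of the prefoldin chaperone, Cyt-c-p (0.860), cytochrome c, and Fis1 (0.850), an outer membrane protein linked to fission, stood first. Their longest transcripts have 543, 681 and 704 bases, and their own r with depth within groups was -0.714, -0.727 and -0.521.

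Among 21 other import genes listed for comparison, 13 were tested and 8 had too few UMIs, among them tomboy20 with 1 UMI and Tim17b2 with 4 UMIs in all libraries. The small TOM subunit genes CG34200 (Tom6) and CG32267 (Tom5) took a course like that of Tom7. Over 24 libraries Tom7 had an r of 0.901 with CG34200 and 0.886 with CG32267, and within groups both of these followed depth, at -0.842 and -0.746. No other import gene was called in young Drp1-mut, young Marf-mut or old Drp1-mut, by edgeR or DESeq2, with 0, 1 and 0 of the 13 at an unadjusted p under 0.05. Of all genes, 4.94%, 9.75% and 7.52% had such a p.

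In young Opa1-mut 3 of the 13 rose and none fell, where 2.94% of all genes were called. CG34200 was at 325, 279.7 and 264 CPM against 158, 228 and 178 CPM in young Cas9 (log2 difference 0.65, SE 0.14, adjusted p = 0.0247), and CG32267 differed by 0.57 (SE 0.15, adjusted p = 0.0499). Alr, the sulfhydryl oxidase of the intermembrane space that reoxidises the import receptor for small TIM proteins in yeast, differed by 0.77 (SE 0.18, adjusted p = 0.0351). Each of the 3 lost its call in 5 of the 6 omissions of a library. None of the 3 was called with log2 depth as a covariate, with CG34200 at 0.35 (adjusted p = 0.733), CG32267 at 0.19 (adjusted p = 0.880) and Alr at 0.74 (adjusted p = 0.644). Depth and glial markers differed between these groups as given for Tom7. In old Marf-mut 2 of the 13 fell, where 4.58% of all genes were called and 2.91% were called lower. CG34200 fell by 0.67 (SE 0.09, adjusted p = 3.84e-05) and CG32267 by 0.48 on the log2 scale (SE 0.11, adjusted p = 0.0112). CG32267 was not called without old Cas9 replicate 2 or old Marf-mut replicate 3. CG34200 stood at 165, 173 and 181 CPM there, wholly below old Cas9 at 289.9, 264 and 258 CPM, and with log2 depth as a covariate it remained called at -0.80 (adjusted p = 0.00436).

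In old Opa1-mut 3 of the 13 rose and 3 fell, where 13.2% of all genes were called. The median log2 difference over the 13 was 0.17. Old Opa1-mut libraries were all deeper than those of old Cas9. The 3 markers of all neurons summed to 1284 to 1317 CPM in old Opa1-mut and 1465 to 1669 CPM in old Cas9, and the 5 photoreceptor markers had medians of 68.9 and 77.2 CPM, without overlap in either sum. Their part in these calls was not tested. Alr was at 94.6, 127 and 102 CPM against 27.6, 36.1 and 26.7 CPM in old Cas9, well apart. Its log2 difference was 1.82 (SE 0.17, adjusted p = 1.46e-07), it was called in each of 8 alternatives and 6 omissions, and with log2 depth as a covariate it was 1.91. Alr overlaps parvin on the same strand, so its counts could include reads of that gene. CG8728, the alpha subunit of the peptidase that removes presequences, stood at 114, 100.2 and 108 CPM against 74.8, 51.4 and 67.2 CPM and rose by 0.72 on the log2 scale (SE 0.15, adjusted p = 0.00199). CG34200 fell by 1.02 (SE 0.17, adjusted p = 0.00327, and 0.0648 without old Cas9 replicate 3) and CG32267 by 0.59 (SE 0.13, adjusted p = 0.00436).

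The other 2 calls in old Opa1-mut, named after their values were seen, were Hsc70-5, the matrix Hsp70 of the import motor, which rose by 0.37 (SE 0.10, adjusted p = 0.0142), and mge, the Tom22 receptor, which fell by 0.37 on the log2 scale (SE 0.09, adjusted p = 0.00741). With log2 depth as a covariate CG8728 was at 0.74 (adjusted p = 0.182), CG34200 at -0.57 (adjusted p = 0.224), CG32267 at -0.36 (adjusted p = 0.592) and Hsc70-5 at 0.27 (adjusted p = 0.601). Over suspensions, Alr in Opa1-mut was at 1.32 (SE 0.27), not called by edgeR (adjusted p = 0.115) and called by DESeq2.

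**Figure D4:**
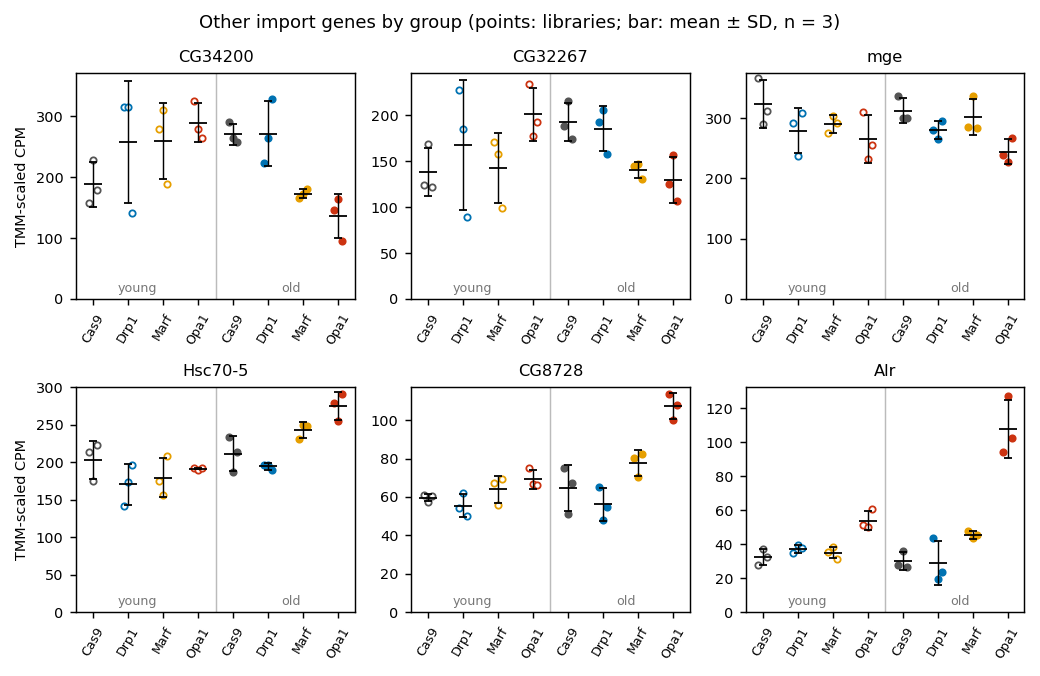
Levels in TMM-scaled CPM (vertical axis, starting at 0) of the 6 other import genes called in old Opa1-mut against old Cas9, for the 4 genotypes in young (open) and old flies (filled); points are libraries, the long bar the mean and the whiskers the SD of 3 libraries. Alr stands at 94.6 to 127 CPM in old Opa1-mut and at 26.7 to 36.1 CPM in old Cas9.

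With age, CG34200 rose in Cas9 by 0.58 (SE 0.13, adjusted p = 0.0256) and Hsc70-5 rose in Marf-mut by 0.42 (SE 0.11, adjusted p = 0.0441). These were the single calls among the 13 in each, where 2.45% and 3.39% of all genes were called. Each was lost in 5 of the 6 omissions of a library. Fitted with log2 depth as a covariate, CG34200 in Cas9 was at 0.32 (adjusted p = 0.998) and Hsc70-5 in Marf-mut at 0.45 (adjusted p = 0.000691). In old against young Opa1-mut Alr rose by 0.99 (SE 0.14, adjusted p = 0.000162), Hsc70-5 by 0.52 (SE 0.08, adjusted p = 0.000562) and CG8728 by 0.63 (SE 0.12, adjusted p = 0.00194), and CG32267 fell by 0.64 on the log2 scale (SE 0.14, adjusted p = 0.00945, and 0.0569 without old Opa1-mut replicate 1). The fifth call there, where 12.4% of all genes were called, was a fall of CG34200 by 1.11 (SE 0.21, adjusted p = 0.0257). Among the old mutants Alr was lower in Marf-mut than in Opa1-mut, at a log2 difference of -1.26 (SE 0.14, adjusted p = 8.30e-07), and lower in Drp1-mut than in Opa1-mut, at -1.78 (SE 0.23, adjusted p = 1.00e-04). Of the 13, 5 were called in each of these pairs, where 15.9% and 10.2% of all genes were called. The first pair also gave calls at -0.47 for CG8728, -0.64 for CG9393 and 0.29 for mge, and the second at -0.88 for CG8728, -0.47 for Hsc70-5 and 0.56 for CG32267. In the first pair CG8728 was lost in 1, CG9393 in 2 and mge in 3 of the 6 omissions of a library, and CG32267 was lost in 4 of 6 in the second. None of the 4 named calls of the second pair held with log2 depth as a covariate, with Alr at -1.21 (adjusted p = 0.399), CG8728 at -0.60 (adjusted p = 0.645), Hsc70-5 at -0.37 (adjusted p = 0.689) and CG32267 at 0.46 (adjusted p = 0.744). CG34200 was higher in old Drp1-mut than in old Marf-mut by 0.67 (SE 0.12, adjusted p = 0.00296), the pair in which Tom7 and 4.34% of all genes were called. Fitted with log2 depth it was at 0.19 (adjusted p = 0.922).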

How the data were processed

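The deposited table holds whole UMI counts per gene and library. The submitters' processing notes name STAR and the dm6 build. No source used here names the counting program, its annotation or its use of strand. DESeq2 is named in the same notes, and the authors deposited 6 tables of mutants against Cas9 with log2 fold changes, p-values and adjusted p-values, per the file headers. Their baseMean, standard error and Wald statistic columns were each taken as a score, per the file headers.

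Counts were tested in R 4.3.3 with edgeR 4.0.16 (quasi-likelihood, robust, TMM, filterByExpr by group, Benjamini-Hochberg over all genes tested, called at an adjusted p under 0.05). An SE is the log2 fold change divided by the square root of F. CPM correlations used log2 values with a prior count of 2. Comparisons covered 6 libraries each, interactions 12, and suspension sums 8 values. DESeq2 1.42.0 was an alternative, beside other scaling, no filter, all 24 libraries in a fit, log2 depth, a replicate block, leaving out 36 mitochondrial DNA genes and 27 ribosomal RNA genes (6.49% and 0.109% of UMIs), and leaving out each library. Tests were checked on simulated counts. Replicate numbers do not pair libraries. Gene positions and transcript lengths come from the BDGP6 annotation in dm6 coordinates. No libraries of the same group were duplicates (chi-square per degree of freedom 3.15 to 19.4). Pairs from different groups were not compared in this way.

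The genes and lists were chosen with earlier results of these data known. All 10 channel genes are named, and of the other import genes up to 4 called in a comparison, by smallest p.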

Additional observations from a re-analysis of the deposited data

Results flagged for a closer look

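In 5 cases the effect of a mutant differed between young and old flies by the interaction test over 12 libraries (edgeR, adjusted p under 0.05). The values are the effect in old minus that in young flies, on the log2 scale. For Opa1-mut they were -1.16 for Tom7 (adjusted p = 0.0491), -1.67 for CG34200 (adjusted p = 0.00484), -1.17 for CG32267 (adjusted p = 0.00553) and 1.05 for Alr (adjusted p = 0.0175). For Marf-mut the value was -1.14 for CG34200 (adjusted p = 0.0472). Of all genes tested, 5.63% were called for Opa1-mut and 0.284% for Marf-mut. CG34200 and CG32267 in Opa1-mut were called with any library left out. Alr missed at an adjusted p of 0.0574 without old Opa1-mut replicate 2, and CG34200 in Marf-mut missed in 10 of 12 omissions. With log2 depth as a covariate none of the 5 was called, and the Opa1-mut values were -0.44, -0.94, -0.53 and 1.15 in the order above. In each age the mutants share their Cas9 libraries, and each group is a single suspension.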

How the results depend on the processing

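Of the 23 counts of called channel genes, 11 held under all alternatives and 14 in all omissions, and no named value changed sign while called. Without the filter on low counts the count was 2 in young Opa1-mut (0 in the report), 1 in old Opa1-mut (0), 2 in old against young Cas9 (0), 1 for the Marf-mut interaction (0), 2 for the Opa1-mut interaction (1) and 1 in old Drp1-mut against Opa1-mut (0). With total count scaling it was 2 in young Opa1-mut and 3 in old against young Opa1-mut (2), and with DESeq2 size factors, or without mitochondrial DNA and ribosomal RNA genes, 0 for the Opa1-mut interaction. The DESeq2 test gave 1 in young Opa1-mut, old Opa1-mut and old Drp1-mut against Opa1-mut, where it called 205, 625 and 537 genes in all. A single fit of 24 libraries gave 0 in old Marf-mut (1), old against young Opa1-mut, the Opa1-mut interaction and old Drp1-mut against Marf-mut (1). With log2 depth the count was 0 in old Marf-mut, the Opa1-mut interaction and old Drp1-mut against Marf-mut, and 1 in old against young Marf-mut, young Marf-mut against Opa1-mut and young Drp1-mut against Marf-mut (each 0). For settings other than the DESeq2 test, the share of all genes called is not given here. Whether a change was particular to the channel genes cannot be read from these counts. The cause of these changes was not tested.

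With one library left out, the count was 0 to 2 in young Opa1-mut, 1 to 2 in old Marf-mut, 0 to 1 in old Opa1-mut, 0 to 2 in old against young Cas9, 0 to 4 in old against young Marf-mut, 1 to 3 in old against young Opa1-mut, 0 to 1 for the Marf-mut interaction, 0 to 3 for the Opa1-mut interaction and 0 to 1 in old Drp1-mut against Opa1-mut. The spread of a group left with 2 libraries was shared with the other group or groups of the fit. The share of all genes called in each omission is not given here.

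The replicate numbers are not a pairing in the labels. Deviations of libraries with the same number had a median r of 0.0102 (from -0.149 to 0.230), and 9 of 24 libraries correlated best with their own number. With the replicate number as a block the count was 2 in old against young Cas9 (Tom7 at 0.52 and Tim10 at 0.60) and 0 for the Opa1-mut interaction.

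Total count scaling moved the median of all genes by up to 0.15 on the log2 scale. Tim13 and 8 other import genes had too few UMIs to pass the filter and were left untested.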
